A study of Homo sapiens with 30 samples.

Results

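Gene expression at day 11 of differentiation was compared between PIP and NSB cells, with 3 bead arrays in each group. These 6 arrays, of the 30 in the study, were taken by their labels alone, PIP Day 11 and NSB Day 11, and no measured value entered the choice. All were made from total RNA of H9, an established human embryonic stem cell line, and the labels give no genetic change in it. The labels describe the PIP samples as placode differentiation and describe each group's arrays as biological replicates, but they spell out neither PIP nor NSB. From what is known of this study, NSB stands for neural induction by Noggin, which blocks BMP, together with a chemical blocker of the activin and Nodal receptors. PIP denotes a placode induction protocol that begins in the same way, so both groups were exposed to these agents at the start. Whether replicates came from separate cultures is not stated. The p-values measure only the spread between arrays within groups, pooled over all 30 arrays, and that spread may be technical. The cells of 1 line were measured, and each array averages all the cell types of a culture.

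Cranial placodes are thickenings of the head ectoderm that give rise to the lens, the inner ear, the olfactory epithelium, the anterior pituitary and many cranial sensory neurons. They arise between the neural plate and the future epidermis, in a border region where BMP, WNT and FGF signals meet. Transcription factors of the TFAP2, GATA, DLX and MSX families mark the non-neural side of that border, and EYA proteins and homeobox partners such as SIX4 form the core network of the placode field. Cells shielded from BMP and activin signals become neural plate instead, and they express PAX6, LHX2, SIX3 and similar factors of the forebrain and eye.

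The labels were set against markers of each cell type. Of 14 placode markers 11 were tested, all of them detected on every PIP array, and 10 stood higher in PIP with 0 lower, PAX6 being the exception. Of 11 neural ectoderm markers 9 were tested, with 5 lower in PIP, 1 higher and 3 not past the test. Their mean log2 level ran from 9.81 to 9.86 on the PIP arrays and from 10.26 to 10.39 on the NSB arrays. In each group 8 of the 9 genes were detected on all 3 arrays. LHX2, among the lower ones (-0.61), did not pass in 1 of 19 alternative ways of processing. Over all genes tested 14.2% were higher in PIP and 11.4% lower. In bulk RNA, fewer cells of a type and less RNA per cell cannot be told apart, which holds for every difference below.

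Values are log2 intensities after background correction and quantile normalization over all 30 arrays. Differences are PIP minus NSB ± their standard error from limma, each group having 3 arrays. That error pools a gene's spread within all 10 groups and is drawn toward that of other genes. It is therefore not the spread of the day 11 arrays alone. For NDP it was 0.185, while the SD over 3 arrays was 0.677 in PIP and 0.0708 in NSB. For ZNF385B it was 0.0792, with SDs of 0.0739 and 0.0690. A gene was called higher or lower in PIP where its adjusted p was under 0.05. Where no array of the dimmer group detected the probe, the fold is a lower bound and is written with "at least". Intensities of different probes were not compared, because probes differ in brightness for equal amounts of RNA.

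At day 11, 3442 of 13488 genes were called (25.5%), 1911 higher in PIP (14.2%) and 1531 lower (11.4%). Of these, 321 were at least 2-fold higher (2.38%) and 111 at least 2-fold lower (0.823%), and for 4773 genes (35.4%) the values of the groups did not overlap. Median unnormalised signals lay between 53.3 and 64.4 intensity units, and 34.0% to 36.1% of probes were detected per array. Pearson correlations over genes were 0.992 to 0.997 within a group and 0.977 to 0.984 between groups. The first principal component of the 6 arrays held 70.4% of the variance and separated the groups. Called genes were higher in PIP in 55.5% of cases. That share was 94.3% when each array was scaled to its median over all probes, which raised the median difference of all genes by 0.28, and 34.6% with scaling on probes detected on all arrays, with a median difference of -0.10. Scaling on all probes called fewer genes of most lists lower, so the balance of a list can depend on the scaling.

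One PIP array lay nearer to the NSB arrays than the others did. Over the 432 genes with a difference of at least 2-fold, PIP replicate 1 was the PIP array closest to the NSB mean for 286 genes (66.2%), against 104 genes for replicate 2 and 42 for replicate 3. Its median distance from the NSB mean was 1.25 on the log2 scale, against 1.42 and 1.44. Among the NSB arrays no replicate stood out in the same way, with 134, 183 and 115 genes. Without PIP replicate 1, 2817 of the 3442 calls were made again and 0 turned direction.

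**Figure D1:**
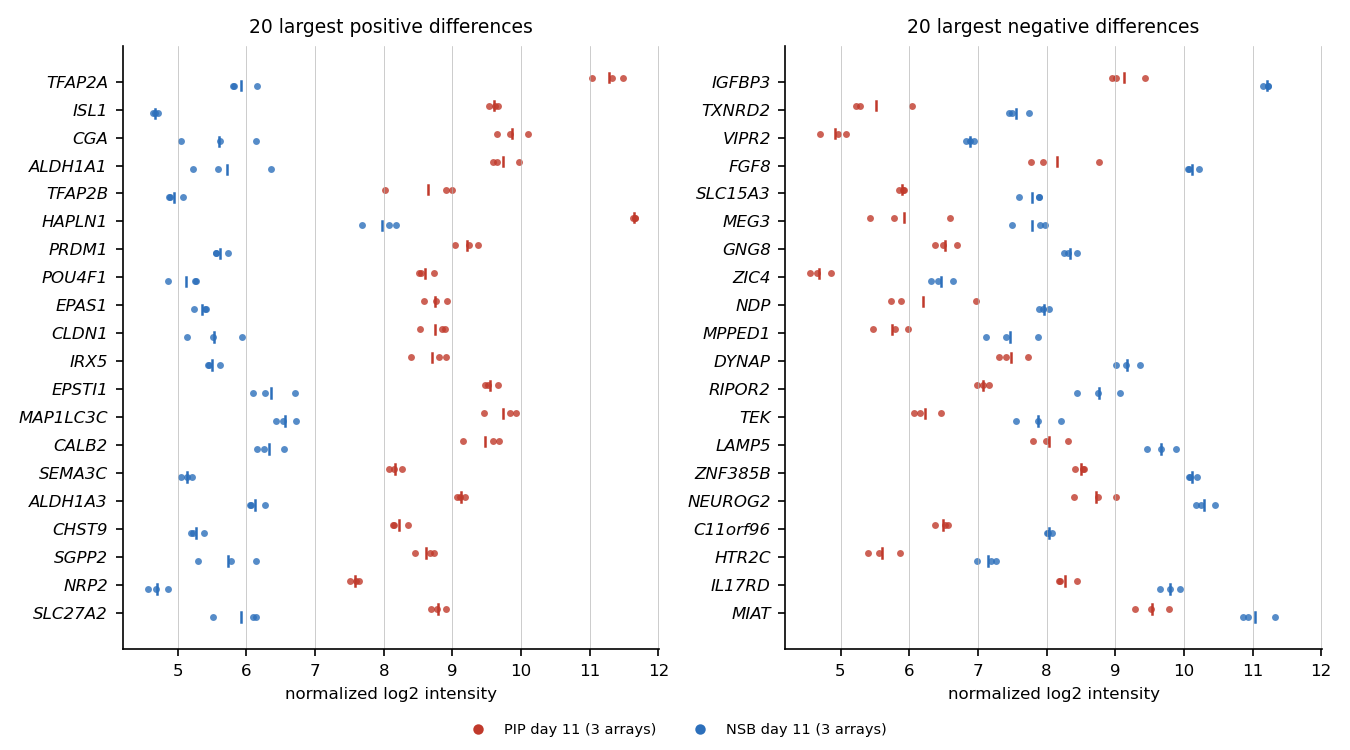
Normalized log2 intensity (horizontal axis) on each day 11 array for the 20 genes with the largest positive (left) and the 20 with the largest negative differences (right). Each point is 1 array, with PIP in red and NSB in blue, and short bars are the means of 3 arrays. The 40 genes were chosen among those whose groups do not overlap, and differences reach 5.36 on the positive side against -2.07 on the negative side.

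Transcription factors of non-neural ectoderm were higher in PIP, TFAP2A by the largest difference of all genes called. TFAP2A, a master factor of surface ectoderm and neural crest, read 11.03, 11.48 and 11.32 on the PIP arrays and 6.15, 5.80 and 5.82 on the NSB arrays. Its relative TFAP2B read 8.02, 8.90 and 8.99 in PIP and 5.07, 4.89 and 4.87 in NSB, where no array detected it. The groups lay far apart for both genes, and PIP replicate 1 was the lowest PIP array for each. The TFAP2A difference was 5.36 ± 0.15 and that of TFAP2B 3.69 ± 0.15, at least 10.4-fold. TFAP2C, which acts with TFAP2A in early ectoderm and trophoblast, was 3.46-fold higher (1.79 ± 0.10). GATA3, a factor of non-neural ectoderm, read 6.99, 7.34 and 7.50 in PIP and was detected on no NSB array, which makes it at least 4.05-fold higher. GATA2 differed by only 0.45 ± 0.10 and GATA5 by 0.70 ± 0.11, and neither passed with scaling on detected probes, while GATA6, an endoderm and heart factor, did not pass (-0.19). In all, 6 of 7 tested TFAP2 and GATA genes were higher and 0 lower, with a median difference of 1.79 against 0.00 over all genes. With scaling on detected probes 4 were higher and 1 lower.

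The homeobox factors of the border followed the same direction. DLX5, which specifies border and olfactory ectoderm, read 11.01, 10.90 and 11.03 in PIP and 9.07, 8.79 and 8.61 in NSB, so it was bright in both groups and 4.46-fold higher in PIP. MSX2, a BMP-induced border factor, read 7.14, 7.27 and 7.22 against 5.57, 5.17 and 5.24, and was detected on 1 of 3 NSB arrays (1.88 ± 0.12). HAND1, a basic helix-loop-helix factor of heart, trophoblast and amnion, was detected on the 3 PIP arrays and on none of NSB, with 7.13, 7.61 and 7.35 against 4.78, 4.68 and 4.56. Its difference was 2.69 ± 0.10, at least 4.31-fold. DLX3 and MSX1 were 1.98 ± 0.12 and 0.69 ± 0.12 higher. DLX1 (-0.10) and DLX2 (0.04), forebrain members of the family, did not pass, which leaves 5 of 7 tested DLX, MSX and HAND genes higher and 0 lower.

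Promoter sequences of 3 genes higher in PIP are shown because they hold words known for GATA or TFAP2 factors, though no binding was measured. They come from RefSeq (GRCh38.p14), run 5′ to 3′ on the strand of the gene from 250 bases before to 50 bases after its start, and have the matched words in capitals. CGA, the shared alpha subunit of the pituitary and placental glycoprotein hormones, lies on chromosome 6 (chr6:87095057-87095356, minus strand). Its capitals mark 1 GATA word (AGATAA) and 2 cyclic AMP response elements (TGACGTCA), whose first bases lie 156, 142 and 124 bases before the start. HAND1 (chr5:154478178-154478477, minus strand) and PRDM1 (chr6:106086086-106086385, plus strand) carry the TFAP2 word GCCNNNGGC, HAND1 with 2 matches and PRDM1 with 1.
CGA: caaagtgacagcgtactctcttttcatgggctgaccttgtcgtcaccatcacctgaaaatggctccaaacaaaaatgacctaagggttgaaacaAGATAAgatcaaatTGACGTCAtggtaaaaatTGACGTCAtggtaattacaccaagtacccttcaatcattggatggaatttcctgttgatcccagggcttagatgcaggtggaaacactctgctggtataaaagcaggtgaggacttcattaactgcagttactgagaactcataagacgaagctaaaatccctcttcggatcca
HAND1: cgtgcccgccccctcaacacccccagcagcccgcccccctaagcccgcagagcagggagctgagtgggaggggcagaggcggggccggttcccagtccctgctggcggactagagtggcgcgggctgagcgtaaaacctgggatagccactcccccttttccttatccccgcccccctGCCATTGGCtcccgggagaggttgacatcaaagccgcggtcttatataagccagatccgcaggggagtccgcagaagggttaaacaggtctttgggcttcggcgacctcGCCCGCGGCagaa
PRDM1: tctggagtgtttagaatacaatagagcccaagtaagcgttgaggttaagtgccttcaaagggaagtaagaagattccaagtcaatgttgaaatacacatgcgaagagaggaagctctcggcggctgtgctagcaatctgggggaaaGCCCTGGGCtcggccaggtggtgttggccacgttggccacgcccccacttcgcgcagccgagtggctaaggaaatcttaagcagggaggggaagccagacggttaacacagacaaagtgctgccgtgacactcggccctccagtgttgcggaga
A match describes the letters only. Promoters were found for 10895 of the tested genes, searched on both strands, and no motif match in CGA overlapped another. The TFAP2 word stood in 30.8% of all promoters, in 27.5% of those of genes at least 2-fold higher in PIP (65 of 236) and in 15 of 75 of those at least 2-fold lower. For the 20 highest genes it stood in 2 of 18 promoters and for the 20 lowest in 4 of 16. Median GC content was 64.7% over all promoters, 62.5% for the genes at least 2-fold higher and 60.7% for those at least 2-fold lower. The cyclic AMP element stood in 3.08% of all promoters and in 5 of 236 of the higher genes. The GATA word, AGATAA or TTATCT, stood in 5.75% of all, 13 of 236 of the higher and 9 of 75 of the lower genes.

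Hormone genes of the pituitary moved unequally. CGA read 9.65, 10.11 and 9.84 in PIP and 6.14, 5.61 and 5.05 in NSB, a difference of 4.27 ± 0.24 with 2 of 3 NSB arrays detected. LHB, the beta subunit of luteinizing hormone, was only 0.89 ± 0.16 higher, and POMC, the precursor of ACTH, 0.42 ± 0.09, which did not pass with scaling on detected probes. HESX1, a repressor of the early forebrain and pituitary primordium, went the other way. It read 8.87, 7.62 and 7.84 in PIP and 9.42, 9.56 and 9.48 in NSB (-1.38 ± 0.17), with PIP replicate 1 again nearest to NSB. TBX19 (-0.11) and LHX4 (0.01), pituitary factors, did not pass, and POU1F1, PRL, TSHB and FSHB were below the detection filter.

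The core placode network differed gene by gene. EYA1, a phosphatase and cofactor of SIX4 and its relatives, read 9.17, 9.14 and 9.30 in PIP and 6.60, 6.47 and 6.39 in NSB. EYA2 read 7.39, 7.61 and 7.76 against 5.76, 5.98 and 5.90. The PIP values of both genes lay above every NSB value, with differences of 2.72 ± 0.10 and 1.70 ± 0.15. SIX4, a homeobox partner of EYA, was bright in both groups and 0.49 ± 0.08 higher in PIP. DACH1, a corepressor that binds EYA and is also expressed in neural progenitors, was 0.57 ± 0.09 lower, and SIX5 0.32 ± 0.10 lower. EYA3 (-0.20), EYA4 (-0.09), SIX2 (0.23) and SIX6 (-0.07) did not pass, so 3 of 9 tested members were higher and 2 lower, with a median of -0.07. With scaling to the median of all probes 0 of the 9 were called lower, and SIX5 turned direction (0.06). The SIX5 call was also lost when any of PIP replicates 1 and 3 or NSB replicates 1 and 3 was left out, with -0.30, -0.30, -0.31 and -0.29.

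Genes that distinguish the single placodes showed no common direction. Of 14 tested lens genes 3 were higher and 3 lower, none by 2-fold, with 3 and 1 under scaling on all probes and 0 and 4 on detected probes, and the crystallins CRYAA (0.19), CRYBB2 (0.11) and CRYGD (-0.14) did not pass. Among 9 otic and posterior placode genes, HMX2, a factor of the inner ear, was at least 1.36-fold higher and SOX10 0.71 ± 0.17 higher. GBX2 (-0.78 ± 0.14), PAX8 (-0.67 ± 0.13) and the FGF feedback gene SPRY2 (-0.92 ± 0.11) were lower. SOX10 was the only one of these 5 whose groups overlapped, with 7.23, 8.12 and 8.18 in PIP against 7.10, 6.85 and 7.44 in NSB, and its call was lost with the 6 day 11 arrays alone. Of 9 olfactory genes 2 were higher, DLX5 and EMX2 (1.16 ± 0.18), and 4 lower, among them GNRH1 (-0.88 ± 0.12), the hormone of neurons born in the olfactory placode, with 2 and 2 under scaling on all probes. The lens, otic and olfactory lists had medians of 0.02, -0.11 and -0.15, against 0.00 over all genes.

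Sensory neuron genes differed in both directions. ISL1, a LIM homeobox factor of sensory and motor neurons that is also expressed in amnion, read 9.62, 9.66 and 9.54 in PIP. On the NSB arrays it read 4.71, 4.65 and 4.66 and was detected on none. POU4F1 (BRN3A), which with ISL1 directs sensory neuron identity, read 8.51, 8.54 and 8.73 against 5.25, 4.86 and 5.26. Both genes were even across the PIP arrays, replicate 1 included. ISL1 was at least 20.4-fold higher and the POU4F1 difference was 3.47 ± 0.12. PRPH, an intermediate filament of peripheral neurons, was 0.90 ± 0.14 higher and EBF1 0.68 ± 0.08, at least 1.21-fold. NEUROG2, a proneural factor of placodal and cortical neurons, read 9.01, 8.75 and 8.40 in PIP and 10.25, 10.18 and 10.45 in NSB, and was 1.58 ± 0.16 lower. NTRK3, the receptor of neurotrophin 3, was 0.62 ± 0.12 lower. In the list of 12 tested genes 4 were higher and 4 lower, with 4 and 2 under scaling on all probes, while RUNX1 (-0.03), RUNX3 (-0.04), ISL2 (0.06) and EBF3 (-0.13) did not pass. NEUROG1 and TLX3 were below the detection filter. CALB2, the calcium buffer calretinin found in many sensory neurons, read 9.15, 9.59 and 9.67 in PIP and 6.26, 6.55 and 6.16 in NSB (3.15 ± 0.13).

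**Figure D2:**
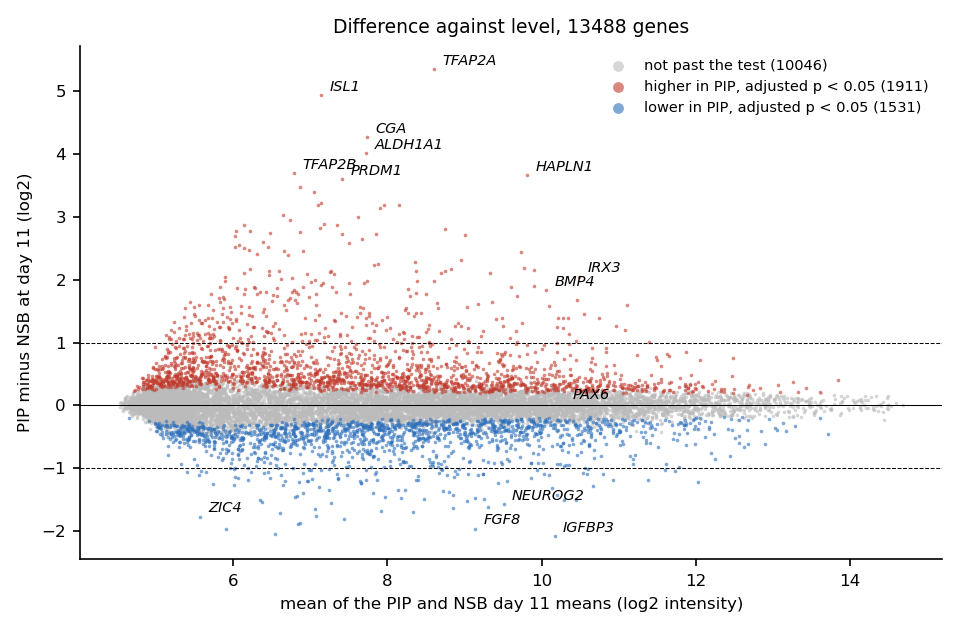
Difference between PIP and NSB at day 11 (log2, vertical axis) against the mean of both group means (log2 intensity, horizontal axis) for the 13488 genes tested. Red points (1911) were called higher and blue points (1531) lower in PIP, grey points (10046) did not pass, and dashed lines mark 2-fold. The upper side reaches farther from 0 than the lower side, with TFAP2A at 5.36 and IGFBP3 at -2.07, and PAX6 lies at 0.03.

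Forebrain and eye field factors were detected in both groups, and several were lower in PIP. PAX6 read 10.20, 10.33 and 10.41 in PIP and 10.30, 10.31 and 10.23 in NSB, and the groups overlapped. SIX3, which represses WNT in the forebrain and eye field, read 8.41, 8.20 and 8.25 against 9.40, 9.28 and 9.61 (-1.14 ± 0.14). EMX1, a factor of the dorsal forebrain, was 1.39 ± 0.11 lower and FEZF1, a factor of the forebrain and olfactory system, 0.97 ± 0.12 lower. OTX1, a forebrain and sensory organ factor, was 1.47 ± 0.17 higher in PIP, and EMX2, a relative of EMX1, 1.16 ± 0.18 higher. EMX2 read 8.21, 9.03 and 9.12 in PIP and 7.91, 7.67 and 7.31 in NSB, so that EMX1 and EMX2 differed in opposite directions. Among 20 tested genes 4 were higher, 6 lower and 10 not past the test, including RAX (-0.38), VAX1 (-0.35) and SIX6 (-0.07). The list's median was -0.20, and 8 genes were higher and 4 lower under scaling to the median of all probes.

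The Iroquois homeobox genes, which pattern the neural plate and the placodes along the body axis, were higher in PIP. IRX5 read 8.40, 8.91 and 8.80 in PIP and 5.45, 5.61 and 5.46 in NSB. IRX3, its neighbour in the genome, read 11.18, 11.71 and 11.63 against 9.36, 9.54 and 9.47. IRX2 read 10.92, 11.05 and 10.94 against 9.63, 9.62 and 9.47. No PIP value of the 3 genes fell within the NSB range, and the differences were 3.20 ± 0.11, 2.05 ± 0.11 and 1.40 ± 0.07. ZIC4, which acts in the dorsal neural tube, was the opposite case, with 4.86, 4.66 and 4.55 in PIP, where it was not detected, and 6.64, 6.43 and 6.31 in NSB. It was at least 2.40-fold lower in PIP. POU3F1 (-1.19 ± 0.11) and POU3F2 (-0.94 ± 0.13), POU factors of neural progenitors, were lower too. The whole list of 18 tested ZIC, IRX, POU3F and SOX genes had 5 higher, 8 lower and 5 not past the test, SOX2 (-0.05) and ZIC5 (0.17) among the latter, and 6 higher and 4 lower under scaling on all probes.

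Most epithelial regulators were higher in PIP. PRDM1 (BLIMP1), a zinc finger repressor of border and epithelial cells, read 9.04, 9.37 and 9.23 in PIP and 5.56, 5.56 and 5.73 in NSB. OVOL2, which holds cells epithelial, read 8.78, 8.87 and 8.74 against 6.38, 6.50 and 5.76. GRHL2, a grainyhead factor that turns on junction genes, read 6.88, 6.62 and 6.30 and was detected on no NSB array. The groups were separate for each, and the differences were 3.60 ± 0.16, 2.58 ± 0.12 and 1.77 ± 0.11, GRHL2 being at least 2.54-fold higher. A second PRDM1 probe gave a difference of only 0.16. KLF5 was at least 1.99-fold higher, and ELF3 (0.94 ± 0.10) and the splicing factor ESRP1 (0.80 ± 0.13) were higher. Of 14 tested genes 8 were higher and 4 lower, and the 4 lower genes, named after their values were seen, were ZEB1 (-0.59 ± 0.10), ZEB2 (-0.38 ± 0.11), SNAI1 (-0.38 ± 0.10) and GRHL1 (-0.38 ± 0.12). ZEB1, ZEB2 and SNAI1 are repressors of epithelial genes. Under scaling to the median of all probes 1 gene of the list was lower, while SNAI1 did not pass (-0.01) and ZEB2 (0.01) and GRHL1 (0.02) turned direction. ZEB2 also did not pass by the mean of its probes (-0.04) or in the second deposited table (-0.39). GRHL1 was lost with the 6 day 11 arrays alone (-0.38) and without NSB replicate 2 (-0.33) or 3 (-0.27). The mean of the GRHL1 probes was 0.69 higher in PIP, so its probes disagree.

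Genes of cell junctions were higher in PIP in large part. CLDN1, a tight junction claudin of barrier epithelia, read 8.53, 8.89 and 8.84 in PIP and 5.51, 5.94 and 5.13 in NSB. CLDN7 read 9.72, 9.99 and 10.04 against 7.56, 7.70 and 7.94, and CLDN4 read 6.01, 6.71 and 6.56 against 4.96, 4.94 and 5.21 with no NSB array detected. The NSB arrays lay below the PIP arrays throughout. MARVELD3 (1.78 ± 0.10), CLDN6 (1.47 ± 0.10) and CLDN3 (1.32 ± 0.12) were higher as well. Of 18 tested tight junction genes 10 were higher and 0 lower, with a median of 0.83, while CLDN5 (-0.23), CLDN11 (-0.16) and TJP1 (0.17) did not pass. With scaling on detected probes 9 of the list were higher and 2 lower. Among desmosome and epithelial surface genes 16 of 20 were higher and 0 lower, with a median of 1.08. LAD1, a basement membrane protein, read 9.42, 9.41 and 9.50 against 7.22, 7.17 and 7.52, though another of its probes gave -0.14. The trafficking genes MAL2 (1.61 ± 0.12), RAB25 (1.58 ± 0.11) and AP1M2 (1.53 ± 0.12) of polarized epithelia and the desmosome gene PKP2 (1.52 ± 0.08) were all higher. The polarity gene CRB3 was at least 2.60-fold higher. In the keratins, KRT8 (1.00 ± 0.11), KRT19 (0.82 ± 0.08) and KRT18 (0.75 ± 0.09) of simple epithelia were higher, and KRT7 (0.40) did not pass. KRT18 has many copies in the genome, and another of its probes gave -0.25.

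Cadherins did not switch as a pair. CDH2 (N-cadherin), the neural member, read 13.19, 13.24 and 13.30 in PIP and 13.26, 13.32 and 13.24 in NSB, and did not pass (-0.03 ± 0.07). CDH1 (E-cadherin) was dim, with 5.16, 5.60 and 5.45 in PIP, detected on 2 arrays, and no NSB array detected, which makes it at least 1.11-fold higher, a call lost with scaling on detected probes. The placental cadherin CDH3 was 1.11 ± 0.09 higher. CDH11 (-0.80 ± 0.14), a mesenchymal cadherin, and the protocadherin PCDH18 (-1.43 ± 0.15) were lower, CDH11 not with scaling on all probes. In all 7 of 18 were higher and 3 lower.

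The extracellular matrix differed in composition. HAPLN1, a link protein that ties hyaluronan to proteoglycans, read 11.65, 11.64 and 11.65 in PIP and 8.17, 8.07 and 7.68 in NSB (3.67 ± 0.11). FREM2 read 10.30, 10.33 and 10.51 against 8.26, 8.25 and 8.30. FRAS1, which joins FREM2 in a complex under embryonic epithelia, read 9.93, 10.24 and 10.21 against 9.03, 8.71 and 8.87. No PIP value of these genes fell within the NSB range. TNC (1.32 ± 0.13), DCN (1.70 ± 0.14) and the heparan sulfatase SULF1 (1.02 ± 0.09) were higher, and 12 of 36 tested matrix genes were higher and 11 lower, the lower ones all by less than 2-fold. Under scaling to the median of all probes 15 matrix genes were higher and 0 lower, and with scaling on detected probes 9 and 13. Collagens were lower in 9 of 22 and higher in 2, with COL1A1 (-1.18 ± 0.12), COL11A1 (-1.18 ± 0.09), COL9A3 (-0.94 ± 0.10) and COL6A2 (-0.90 ± 0.11) leading. COL2A1, a collagen of cartilage and early neuroepithelium, did not pass (0.01 ± 0.10). Under scaling to the median of all probes 6 collagens were higher and 4 lower, and without PIP replicate 1 the main scaling called 5 lower. Integrins and laminins had 4 higher and 4 lower of 17, none by 2-fold, and 5 higher and 0 lower under that scaling.

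Annexins and S100 proteins, calcium binding partners at the cell membrane, were higher in 10 of 14 with 0 lower and a median of 0.88. ANXA3 read 9.76, 9.75 and 9.92 in PIP and 7.65, 7.84 and 7.53 in NSB (2.14 ± 0.11). S100A11 read 9.29, 9.43 and 9.46 against 7.57, 7.58 and 7.69 (1.78 ± 0.08). ANXA2 and its partner S100A10 were 1.39 ± 0.14 and 1.19 ± 0.11 higher, and a second ANXA2 probe gave 1.17. S100A16 (1.85 ± 0.11) and ANXA1 (1.38 ± 0.16) completed the leading members, while ANXA4 (0.04), ANXA5 (-0.13) and S100A6 (0.12) did not pass.

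BMP pathway genes were higher from ligands to targets. Among the ligands, BMP4 read 10.67, 11.08 and 11.18 in PIP and 8.89, 9.25 and 9.29 in NSB (1.83 ± 0.13). BMP5 was at least 1.98-fold higher and BMP2 1.29 ± 0.12 higher. BAMBI, a decoy receptor induced by BMP, read 11.08, 10.90 and 10.87 against 8.53, 8.63 and 8.39 (2.43 ± 0.09). GREM1, a secreted BMP antagonist, read 8.76, 9.16 and 9.10 against 6.67, 6.90 and 6.72 (2.25 ± 0.11). The intracellular inhibitor SMAD7 was 1.00 ± 0.12 higher. No PIP array of these genes reached down to the NSB values. Of 24 tested genes 15 were higher and 2 lower, with a median of 0.34, and ID4 (0.08), BMP7 (0.19) and FST (0.26) did not pass. The lower genes, named after their values were seen, were CHRD (-0.33 ± 0.11) and FSTL3 (-0.47 ± 0.11), both antagonists, and neither passed with scaling on all probes. The CHRD call was also lost without background correction (-0.20), with the 6 day 11 arrays normalized alone (-0.31), and without PIP replicate 2 (-0.31) or 3 (-0.28) or NSB replicate 3 (-0.29). TGF-beta and activin genes had 5 of 16 higher and 1 lower, none by 2-fold, with 2 higher and 0 lower without PIP replicate 1 and 3 of each with scaling on detected probes.

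FGF signalling genes were lower in PIP. FGF8, a ligand made at the front edge of the neural plate, read 8.76, 7.95 and 7.77 in PIP and 10.06, 10.07 and 10.22 in NSB (-1.96 ± 0.15), with PIP replicate 1 the nearest to NSB. FGF9 read 8.70, 8.42 and 8.37 against 9.74, 9.50 and 9.54 (-1.10 ± 0.11). Feedback genes switched on by ERK were lower with the ligands. ETV4 read 7.38, 7.25 and 7.11 against 8.78, 8.56 and 8.76 (-1.45 ± 0.11), and the phosphatases DUSP4 (-1.48 ± 0.15) and DUSP6 (-1.26 ± 0.19) and the receptor inhibitor IL17RD (-1.53 ± 0.12) were lower. In the list of 27 tested genes 16 were lower and 2 higher, with a median of -0.41, and FGFR1 (-0.24), FGF2 (0.08) and SPRY4 (-0.41) did not pass. With scaling to the median of all probes 9 genes were lower, and the list's median was -0.34 once the shift of all genes was taken off.

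Of 19 Notch genes 8 were lower and 1 was higher. MFNG, a fringe enzyme that modifies Notch, read 8.72, 8.45 and 8.36 in PIP and 9.84, 10.09 and 10.08 in NSB (-1.50 ± 0.11). The ligands DLL1 (-0.85 ± 0.08) and DLL3 (-1.11 ± 0.12) were lower, as were NRARP (-0.86 ± 0.20), HES5 (-0.85 ± 0.16) and NOTCH1 (-0.65 ± 0.16), the last not with scaling on all probes. JAG1 (0.03), HES1 (0.30) and NOTCH3 (0.19) did not pass, and HEY2, chosen after its value was seen, was the higher gene (0.60 ± 0.12), but not with scaling on detected probes. Under scaling to the median of all probes 5 genes were lower and 5 higher.

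WNT genes moved both ways. The secreted inhibitor DKK1 read 8.57, 8.78 and 8.98 in PIP and 6.12, 6.31 and 5.72 in NSB (2.73 ± 0.17). WNT5A, a ligand of the planar polarity branch, read 7.95, 7.45 and 7.59 against 6.33, 5.71 and 5.52 (1.81 ± 0.15). WNT2B (1.38 ± 0.14) and the pathway enhancer RSPO3 (1.37 ± 0.11) were higher with 2 of 3 NSB arrays detected. FRZB, a secreted WNT antagonist of the neural plate, read 11.81, 11.14 and 11.28 against 12.66, 12.57 and 12.69 (-1.23 ± 0.12). NDP (norrin), a ligand of frizzled receptors, read 6.97, 5.74 and 5.88 against 7.89, 7.95 and 8.03 (-1.76 ± 0.19), and replicate 1 was again the PIP array nearest to NSB. The list had 10 higher and 8 lower of 29, and 7 higher and 11 lower with scaling on detected probes. Target genes of the pathway were higher in 5 of 11, namely TNFRSF19 (1.94 ± 0.13), AXIN2 (1.01 ± 0.11), LEF1 (1.00 ± 0.13), APCDD1 (0.70 ± 0.13, lost with scaling on detected probes) and RNF43 (0.63 ± 0.12), and the feedback inhibitor NKD2 was lower (-1.03 ± 0.10). LGR5 (-0.05) and SP5 (0.41) did not pass.

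Retinoic acid genes were higher from synthesis to response. ALDH1A1, which makes retinoic acid from retinal, read 9.60, 9.65 and 9.96 in PIP and 5.58, 6.35 and 5.22 in NSB. Its relative ALDH1A3 read 9.06, 9.11 and 9.18 against 6.27, 6.06 and 6.05. RARB, a receptor that is itself a retinoic acid target, read 7.49, 7.45 and 7.63 against 5.24, 5.10 and 4.98, with 1 NSB array detected. All PIP values lay above all NSB values for the 3 genes, with differences of 4.02 ± 0.17, 2.99 ± 0.11 and 2.41 ± 0.08. The degrading enzyme CYP26A1 was 1.67 ± 0.09 higher, though another of its probes gave 0.07, and STRA6 (1.07 ± 0.11), which takes up retinol, and RDH10 (0.82 ± 0.10), which oxidizes it, were higher. ALDH1A2, the main enzyme of the trunk, did not pass (-0.02), nor did RARA (-0.08). In all 9 of 15 genes were higher with a median of 0.39, and CYP26B1, chosen after its value was seen, was the lower one (-0.57 ± 0.10).

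Other ligands and receptors included both directions. PDGFC, a growth factor of epithelia, read 9.38, 9.48 and 9.64 in PIP and 7.09, 7.29 and 7.25 in NSB (2.29 ± 0.10). The neuregulin receptor ERBB3 differed by 2.12 ± 0.21, while another of its probes gave -0.02, and the receptor KIT was 1.09 ± 0.13 higher. The chemokines CXCL14 (2.02 ± 0.14) and CXCL12 (1.80 ± 0.12) and the endothelins EDN1 (1.68 ± 0.14) and EDN3, at least 1.81-fold, were higher. CXCL12 read 7.36, 7.34 and 7.29 against 5.40, 5.36 and 5.83. On the lower side were VIPR2, a receptor of vasoactive intestinal peptide, at least 3.23-fold, and the adhesion receptor ADGRG1 (-1.50 ± 0.12). IGFBP3, which binds insulin-like growth factors, read 9.43, 9.01 and 8.95 in PIP and 11.16, 11.23 and 11.23 in NSB, the largest negative difference of all genes called (-2.07 ± 0.12). The growth factor IGF2 was 1.18 ± 0.15 higher, with replicate 1 the lowest PIP array at 7.86 against 8.80 and 8.58. Of 9 tested Hedgehog genes, PTCH1, the receptor and a target of the pathway, was lower (-1.06 ± 0.14), BOC (0.82 ± 0.10) and GAS1 (0.72 ± 0.07) were higher, and GLI1 (0.22) did not pass. The share of Hedgehog genes called was 33.3%, against 25.5% of all genes.

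Of 41 axon guidance genes 15 were higher and 9 lower, a share called of 58.5% against 25.5% of all genes. Under scaling on all probes 19 were higher and 3 lower, and on detected probes 13 and 8. Leaving out 1 day 11 array gave 13 to 15 higher and 5 to 9 lower. SEMA3C, a secreted semaphorin, read 8.15, 8.07 and 8.27 in PIP and 5.05, 5.20 and 5.14 in NSB, where no array detected it. Its receptor NRP2 read 7.64, 7.59 and 7.52 against 4.86, 4.68 and 4.56, again with none detected in NSB. SEMA3C was at least 7.51-fold and NRP2 at least 5.01-fold higher, although another NRP2 probe gave 0.70. The coreceptor NRP1 (1.23 ± 0.12), the repellent SLIT2 (1.42 ± 0.12), the ephrin EFNA1 (2.24 ± 0.12) and the Eph receptor EPHA1 (1.24 ± 0.08) were higher too. None of the lower genes differed by 2-fold, while 8 of the higher ones did.

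Some genes of neural progenitors and neurons were lower in PIP. Of 23 radial glia and progenitor genes 11 were lower and 2 higher, with a median of -0.33. PTPRZ1, a receptor phosphatase of radial glia, read 10.27, 9.85 and 9.95 in PIP and 11.40, 11.40 and 11.14 in NSB (-1.29 ± 0.11). GPM6B (-0.93 ± 0.09), NES (-0.93 ± 0.12) and TTYH1 (-0.85 ± 0.10) were lower, GPM6A (0.90 ± 0.11) was higher, and VIM (-0.08) did not pass. Of 26 neuronal cytoskeleton and axon genes 10 were lower and 5 higher. MAP2, a dendritic microtubule protein, read 9.41, 9.57 and 9.48 against 10.61, 10.66 and 10.47 (-1.09 ± 0.10), and NCAM1 was 0.93 ± 0.13 lower. TUBB3 (0.04), GAP43 (0.00) and DCX (-0.28), general neuronal genes, did not pass. Under scaling to the median of all probes 4 progenitor genes were higher and 6 lower, and 6 cytoskeleton genes were higher and 3 lower. Among secretory and synaptic genes CPE, a carboxypeptidase that matures peptide hormones, read 10.59, 10.98 and 10.99 against 8.88, 9.14 and 8.84 (1.90 ± 0.13), while VGF was 0.97 ± 0.09 lower, and 5 of 24 were higher and 7 lower, with 5 and 2 under scaling on all probes and 3 and 12 on detected probes. Ion channels had 6 of 25 higher and 8 lower, led by GABRP, at least 2.16-fold higher, and KCNK12 (-1.32 ± 0.10). Under scaling on all probes 8 channel genes were higher and 3 lower, and on detected probes 4 and 12.

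**Figure D3:**
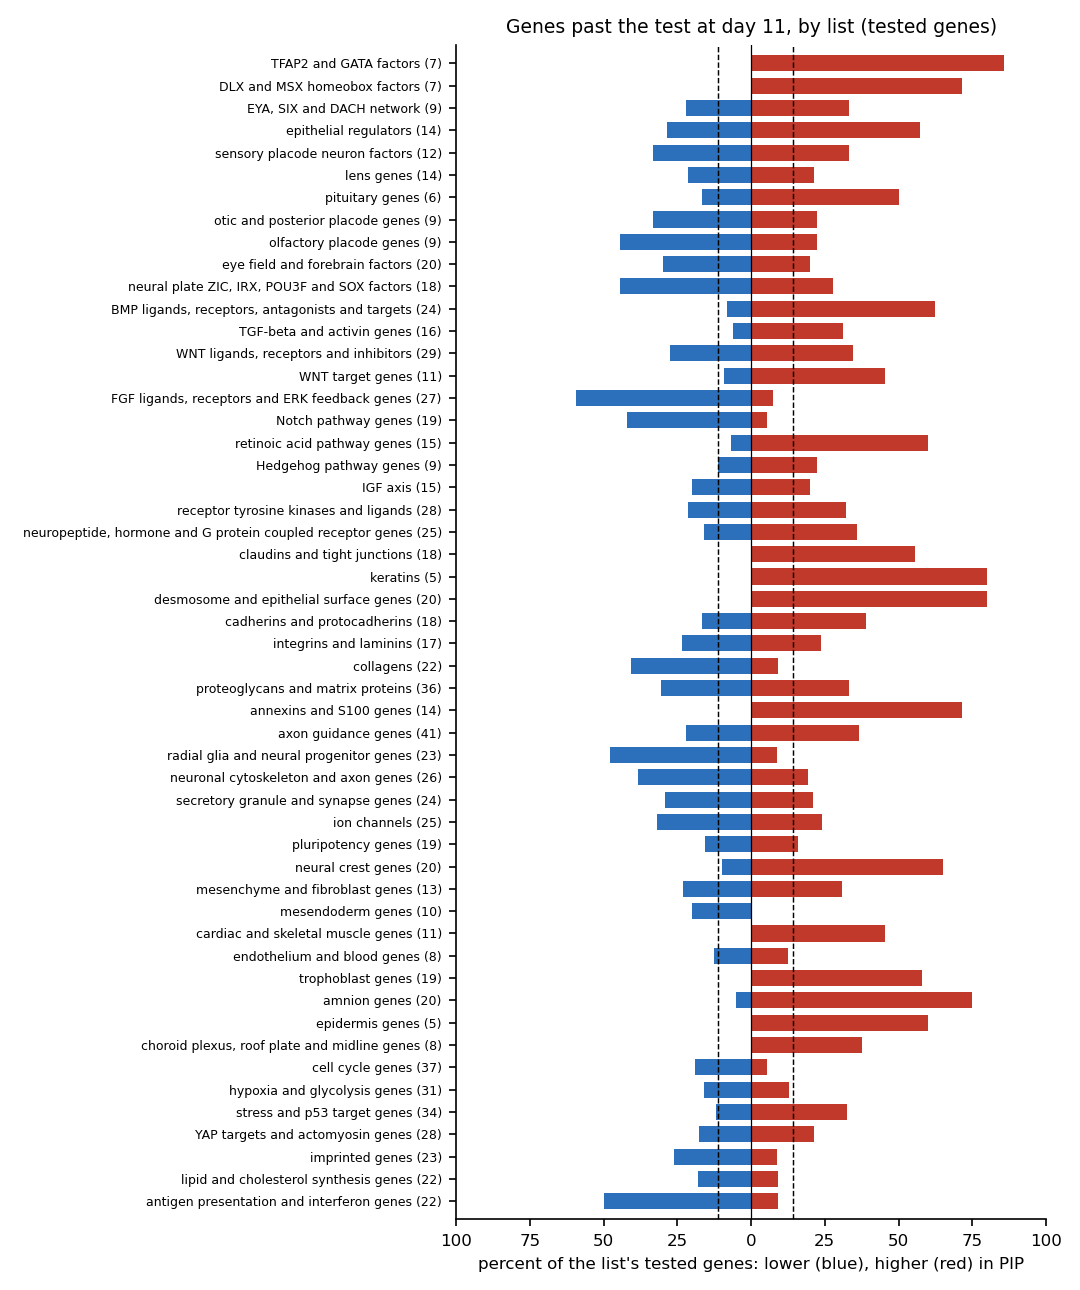
Percent of the tested genes of each list that were called higher (red, to the right) or lower (blue, to the left) in PIP at day 11, with the number tested in brackets. Dashed lines mark the share over all genes, 14.2% higher and 11.4% lower. The TFAP2 and GATA, DLX and MSX, keratin, desmosome, annexin and amnion lists reach farthest to the right, and the FGF and antigen presentation lists farthest to the left.

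Markers of other cell types were among the genes that differed. Of 20 tested amnion genes 15 were higher and 1, IGFBP3, lower, with a median of 1.35. Their mean level ran from 8.96 to 9.14 on the PIP arrays and from 7.43 to 7.54 on the NSB arrays. Several of them, such as TFAP2A, GATA3 and BMP4, are genes of non-neural ectoderm as well. VTCN1, a surface protein of amnion and trophoblast, read 6.76, 7.70 and 7.59 in PIP and was detected on no NSB array (at least 4.27-fold higher). Of 19 trophoblast genes 11 were higher and 0 lower, or 9 and 3 with scaling on detected probes. Their mean level ran from 6.50 to 6.64 against 5.50 to 5.66. MUC15 read 6.62, 6.61 and 6.99 against 5.23, 4.98 and 4.82, and ELF5 7.60, 7.50 and 7.55 against 5.52, 6.11 and 5.99. GCM1 (-0.25), ERVW-1 (0.27) and KRT7 (0.40), which mark placental or amniotic epithelium, did not pass, and CDX2, PGF, PSG1 and CYP19A1 were below the detection filter. The part of amnion or trophoblast cells in the differences of TFAP2A, GATA3, HAND1, ISL1 and CGA was not tested.

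Of 20 neural crest genes 13 were higher and 2 lower, with a mean level of 7.42 to 7.71 in PIP and 6.56 to 6.68 in NSB. ETS1, a factor of cranial crest, read 7.83, 8.18 and 8.26 against 6.13, 6.25 and 6.14 (1.92 ± 0.09). The defining crest factors FOXD3 (0.10), SOX9 (-0.28) and SNAI2 (-0.37) did not pass, FOXD3 being detected on 1 array of each group. Of the 7 defining crest markers the other 4 were higher, namely ETS1, ERBB3, SOX10 (0.71 ± 0.17) and PAX3, the last dim and at least 1.03-fold. As given above, another ERBB3 probe showed almost no difference. The SOX10 groups overlapped, and its call was lost with the day 11 arrays alone. The part of crest cells in the differences of TFAP2A, TFAP2B and ERBB3 was not tested. Epidermal keratins KRT5, KRT14 and KRT15 were below the detection filter, as were PECAM1, PTPRC and TAL1 of endothelium and blood and MIXL1, SOX17 and FOXA2 of mesendoderm. Of 10 tested mesendoderm genes 0 were higher and 2 lower, a share called below the 25.5% of all genes. The lower ones were FOXA1 and, not with scaling on all probes, MESP1. Scaling on detected probes called 0 of the 10 higher and 6 lower. Among 8 tested endothelium and blood genes 1 was higher and 1 lower, a share called close to the 25.5% of all genes. Scaling on detected probes called 1 of them higher and 2 lower. The lower one, the angiopoietin receptor TEK, read 6.47, 6.16 and 6.07 in PIP against 7.56, 7.87 and 8.21 (-1.64 ± 0.11). VWF was the higher one, and CDH5 (0.11) and KDR (-0.10) did not pass. Muscle genes were higher in 5 of 11, led by ACTC1 (1.23 ± 0.13), MYF6 (1.10 ± 0.18) and MYH6 (1.03 ± 0.12), while MYOD1 (-0.13) and TNNI3 (-0.19) did not pass. With scaling on detected probes 3 muscle genes were higher and 3 lower. Of 19 pluripotency genes 3 were higher and 3 lower, with 5 and 2 under scaling on all probes and 1 and 5 on detected probes. The share called was 31.6%, against 25.5% of all genes. POU5F1 read 6.88, 6.89 and 6.68 against 6.82, 6.95 and 7.23 and did not pass, whereas ZFP42 (REX1) was 1.23 ± 0.10 higher and the DNA methyltransferase DNMT3B 0.86 ± 0.10 lower.

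Of 37 cell cycle genes 2 were higher and 7 lower, which is 24.3% against 25.5% of all genes, and 11 were higher and 0 lower under scaling to the median of all probes. Without PIP replicate 1 the main scaling called 4 lower. CDK6, a kinase of the first gap phase, differed most, with 8.61, 8.37 and 8.49 in PIP and 7.02, 7.09 and 6.97 in NSB (1.46 ± 0.11). EPAS1 (HIF2A), an oxygen-regulated factor, read 8.58, 8.92 and 8.75 against 5.24, 5.41 and 5.40 (3.40 ± 0.10). Of 31 hypoxia and glycolysis genes 4 were higher and 5 lower, with 12 and 1 under scaling on all probes. The share called was 29.0%, close to the 25.5% of all genes. SLC2A1, the main glucose transporter, was 1.09 ± 0.11 lower. HIF1A (0.20), LDHA (-0.01) and VEGFA (0.13) did not pass. The metallothioneins MT2A (1.39 ± 0.11) and MT1G (1.26 ± 0.12), which have near-identical relatives, and the stress genes TRIB3 (0.86 ± 0.14) and DDIT3 (0.85 ± 0.11) were higher. Stress and p53 target genes were higher in 11 of 34 and lower in 4, a share called of 44.1% against 25.5% of all genes. With scaling on all probes 20 were higher and 1 lower, and on detected probes 10 and 7. TXNRD2, a mitochondrial thioredoxin reductase, read 6.04, 5.23 and 5.28 against 7.49, 7.45 and 7.74 (-2.05 ± 0.15). Of 22 antigen presentation and interferon genes 11 were lower and 2 higher, led by IFIT1 (-1.35 ± 0.16) and IFITM1 (-0.80 ± 0.10), and 4 were lower under scaling to the median of all probes. Among 23 imprinted genes 2 were higher and 6 lower, a share called of 34.8% against 25.5% of all genes. That balance was 8 higher and 2 lower under scaling to the median of all probes, and 2 and 10 on detected probes. MEG3, an imprinted noncoding RNA, read 6.59, 5.77 and 5.43 against 7.91, 7.50 and 7.97 (-1.86 ± 0.20) and NNAT was 1.18 ± 0.14 lower.

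Further genes stood among the 20 largest differences of either direction. Higher in PIP were the autophagy gene MAP1LC3C (3.18 ± 0.17), EPSTI1 (3.19 ± 0.13), the sulfotransferase CHST9 (2.95 ± 0.14), the sphingosine phosphatase SGPP2 (2.88 ± 0.13) and the fatty acid transporter SLC27A2 (2.87 ± 0.11). Another SGPP2 probe gave 0.47. Lower in PIP were the transporter SLC15A3 (-1.89 ± 0.11), the G protein subunit GNG8 (-1.81 ± 0.13), MPPED1 (-1.72 ± 0.14), DYNAP (-1.69 ± 0.10) and RIPOR2 (-1.68 ± 0.11). LAMP5, a membrane protein of neurons (-1.64 ± 0.14), ZNF385B (-1.62 ± 0.08), C11orf96 (-1.55 ± 0.11), the serotonin receptor HTR2C (-1.54 ± 0.14) and the noncoding RNA MIAT (-1.51 ± 0.16) followed. Another MPPED1 probe gave -0.03.

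Over all 52 lists, 869 different genes were tested, of which 260 were higher and 199 lower. The share called was 52.8%, against 25.5% of all genes, and the lists had been drawn up with earlier results of these data known.

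The differences of day 11 were set against those of earlier days on other arrays. In the deposited table the day 3 and day 5 arrays carry joined pairs of sample codes and the other arrays single codes, and the labels do not say what a pair means. At day 5, 1554 genes were called (11.5%), at day 7, 1678 (12.4%), and at day 9, 2811 (20.8%). Of the 321 genes at least 2-fold higher at day 11, 57 (17.8%) were already called higher at day 5, 217 (67.6%) at day 7 and 285 (88.8%) at day 9, and 10 were called lower at day 5. Over all genes the share called higher was 5.93%, 6.51% and 10.3% on those days. Their median difference was 0.07, 0.59 and 1.19 on those days, and 1.42 at day 11. Of the 111 lower genes, 30 were called lower at day 5, 70 (63.1%) at day 7 and 91 (82.0%) at day 9, against 5.59%, 5.93% and 10.5% of all genes.

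The day at which a difference first passed the test varied between genes. TFAP2A stood at 9.90 in PIP and 6.53 in NSB at day 5 and at 11.28 and 5.92 at day 11. DLX5 stood at 10.06 and 7.65 at day 5, and the change of its difference from then to day 11 did not pass (-0.25 ± 0.16). PRDM1 stood at 8.43 and 7.12 at day 5 and ISL1 at 5.78 and 4.83. These 4 genes were thus called at the first day on which the arms were measured apart. TFAP2B (4.73 and 4.65) and POU4F1 (4.99 and 4.91) did not pass at day 5 and were called at day 7, at 6.13 against 4.70 and 6.82 against 5.20. IRX5 was called at day 7 too, at 8.01 against 6.80. ALDH1A1, CLDN1 and SEMA3C did not pass at day 5 or day 7 and were called at day 9. Their levels at day 9 were 7.52 against 5.64, 7.05 against 5.40 and 6.71 against 4.84.

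**Figure D4:**
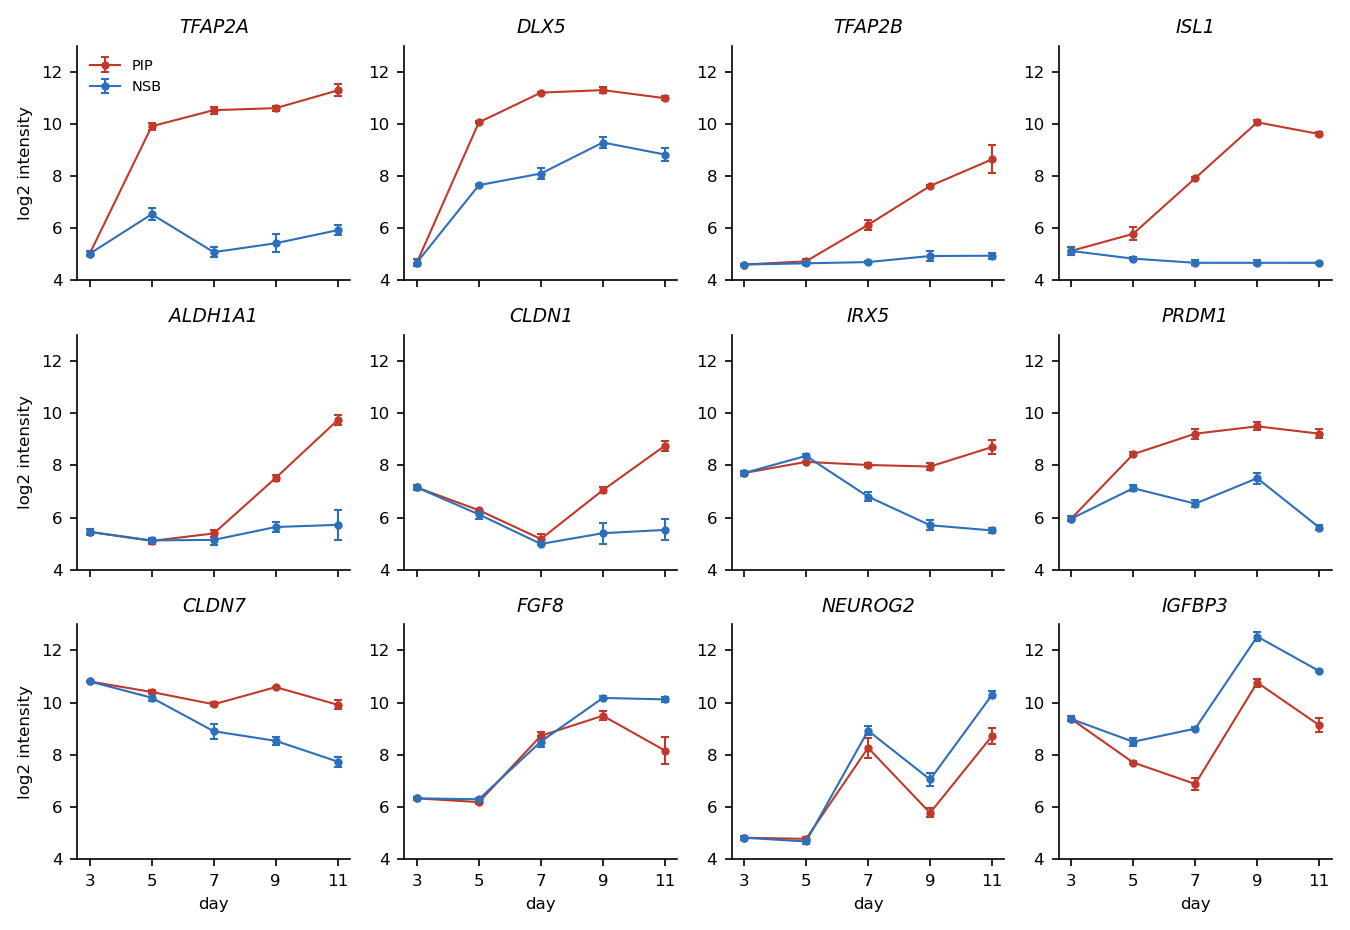
Mean log2 intensity (vertical axis) by day (horizontal axis) in PIP (red) and NSB (blue) for 12 genes, with bars of 1 SD over 3 arrays; both arms share the day 3 arrays. TFAP2A, DLX5, PRDM1 and ISL1 differ at day 5, TFAP2B at day 7 and ALDH1A1 and CLDN1 at day 9, while IRX5 ends at 8.70 in PIP and 5.51 in NSB after 7.70 at day 3.

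Some genes turned direction between day 5 and day 11. BMP2 stood at 6.84 in PIP and 8.64 in NSB at day 5 and at 8.49 and 7.21 at day 11, a change of the difference of 3.09 ± 0.17. NRP2 went from 5.62 and 6.98 to 7.58 and 4.70, a change of 4.24 ± 0.18, and WNT5A from 6.88 and 7.55 to 7.66 and 5.86, a change of 2.48 ± 0.21. The change of the difference from day 5 to day 11 passed the test for 2690 genes (19.9%), upward for 1547 (11.5%) and downward for 1143 (8.47%). Its largest upward values were those of CGA (4.62 ± 0.33), NRP2, ALDH1A1 (4.03 ± 0.24), ISL1 (3.98 ± 0.15) and TFAP2B (3.62 ± 0.21). No NSB array detected ISL1 or TFAP2B at day 5 or day 11 or NRP2 at day 11, and no PIP array detected TFAP2B at day 5, so these changes are set against background and their order is not exact. The largest downward values were those of DYNAP (-2.13 ± 0.15), TXNRD2 (-2.13 ± 0.22), FGF8 (-1.85 ± 0.22), the potassium channel KCNK12 (-1.84 ± 0.14) and MPPED1 (-1.74 ± 0.20), the last detected on no array at day 5. DYNAP and KCNK12 were higher in PIP at day 5, at 8.78 against 8.34 and 11.39 against 10.87.

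Both arms were finally set against the day 3 arrays, which they share, so these values are a description with no test. The genes below were chosen by their day 11 difference, which by itself sets the arms apart against any shared level. The share of all genes this far from day 3 was not counted, and the day 3 arrays carry joined sample codes. Of the 321 genes at least 2-fold higher in PIP, 138 stood at least 1 log2 unit above day 3 in PIP and 146 stood at least 1 unit below day 3 in NSB. For 110 of them the rise was in PIP and not in NSB, and for 97 the fall was in NSB and not in PIP. Their median was 0.76 above day 3 in PIP, and the NSB median was -0.73. The 111 lower genes had medians of 0.29 in PIP and 1.68 in NSB, with 35 genes at least 1 unit above day 3 in NSB and not in PIP, and 16 at least 1 unit below it in PIP and not in NSB.

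The balance differed between gene groups. All 5 higher DLX, MSX and HAND genes and 11 of the 15 higher BMP genes stood at least 1 unit above day 3 in PIP. Of the 10 higher tight junction genes 9 stood at least 1 unit below day 3 in NSB and 1 stood that far above it in PIP. In PIP 3 of the 10 were that far below day 3 as well, and 6 were so in NSB and not in PIP. CLDN7 shows the pattern, with 10.81 at day 3, 9.91 in PIP and 7.73 in NSB at day 11. Of the 16 higher desmosome and epithelial surface genes 9 stood that far below day 3 in NSB and 2 above it in PIP. In PIP 5 of the 16 were that far below day 3 as well, and 4 were so in NSB and not in PIP. TFAP2A went the other way, with 5.02 at day 3, 11.28 in PIP and 5.92 in NSB.

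**Figure D5:**
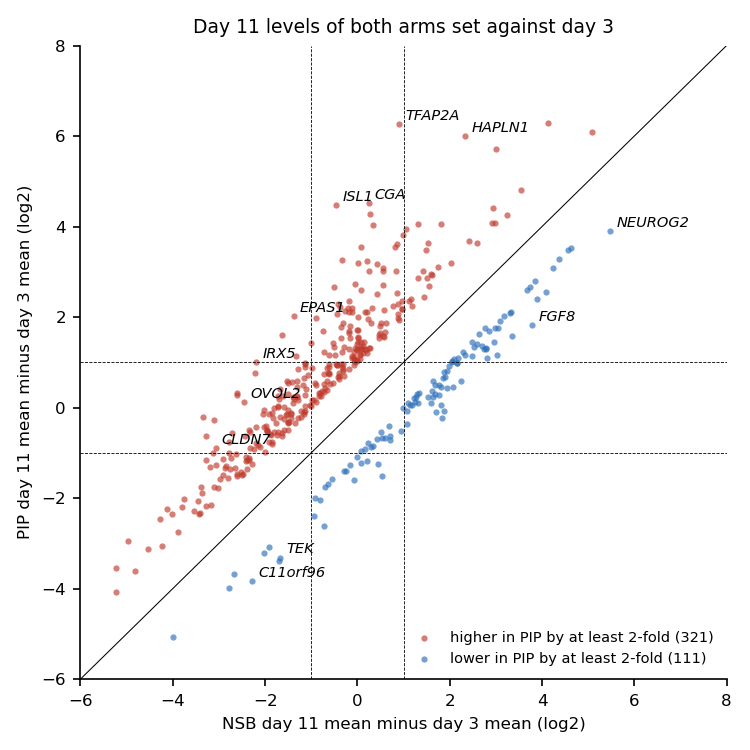
Day 11 minus day 3 in NSB (log2, horizontal axis) against day 11 minus day 3 in PIP (log2, vertical axis) for the 432 genes that differed by at least 2-fold at day 11. Red points (321) are higher and blue points (111) lower in PIP, and both axes use the same day 3 arrays. The red points spread both upward, with a PIP median of 0.76, and to the left, with an NSB median of -0.73.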

How the data were processed

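Gene expression was measured on 30 Illumina bead arrays of H9 cells, 3 for each of 10 groups by the labels, with 6 arrays at day 11. The deposited probe table holds mean bead intensity, not background-subtracted or normalized as its values show, with a detection p-value per probe and array, per the file headers. GenomeStudio is named in the submitters' processing notes with no version, and the genome build is not given in the sources used here. A second deposited table of intensity has equal distributions over arrays and values below 0, and served as an alternative.

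With limma 3.58.1 in R 4.3.3, intensities were background corrected by normexp on the detection p-values (neqc), given an offset of 16, quantile normalized over 30 arrays and put on log2. Probes with a detection p under 0.05 on at least 3 arrays were kept, 21500 of 48701. Of all probes 23687 had 1 gene, 35 several and 24979 none in the platform annotation, and 13488 genes were tested by the probe brightest over all arrays. The linear model held all 10 groups, and p-values were two-sided and adjusted by Benjamini-Hochberg over all genes tested. Another probe gave an opposite call for 13 genes. Array number limits the precision: the median SD over 3 arrays was 0.112 in PIP and 0.129 in NSB. On simulated data for the day 11 comparison, with 13488 genes, the model recovered 82.1% of 1.5-fold and 100% of 2-fold and 4-fold changes. It called 6 of 13288 unchanged genes. Only 67, 67 and 66 genes were changed there, with independent noise for each gene and array. No shift shared by an array or left by scaling was simulated, so these rates do not carry over to the real arrays.

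An "at least" fold set the mean of the brighter group against, per array of the dimmer group, the higher of the probe's own value and the lowest value among detected probes. Named genes are the 20 largest differences each way with groups that do not overlap, the 5 largest changes from day 5 each way, and members of 52 lists (1114 genes, 869 tested, 162 below the filter, 83 not analysed here), with up to 6 of the largest differences per list and defining members that did not pass. The members and lists were chosen with earlier results of these data known. Alternatives covered scaling, background, offset, the second deposited table, filters, probe choice, the model and left-out arrays. Slide was not tested, as the headers give none.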

Additional observations from a re-analysis of the deposited data

Results flagged for a closer look

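The difference between PIP and NSB at day 5 and at day 11 was compared in 1 interaction term of the limma model. It passed the test for 2690 genes, with values on the log2 scale and 3 arrays in each of the 4 groups. CGA (4.62), NRP2 (4.24), ALDH1A1 (4.03), ISL1 (3.98) and TFAP2B (3.62) had the largest changes toward PIP. DYNAP (-2.13), TXNRD2 (-2.13), FGF8 (-1.85), KCNK12 (-1.84) and MPPED1 (-1.74) had the largest changes toward NSB. ISL1, TFAP2B and NRP2 were at background in NSB at day 11, and TFAP2B and MPPED1 in both arms at day 5, so their values are not exact. The cause of these changes was not tested.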

How the results depend on the processing

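Of 201 named genes called at day 11, 183 kept their direction and their side of the threshold under every alternative that gave them a value, 18 or 19 per gene. SIX5 (0.0596), ZEB2 (0.0125) and GRHL1 (0.0176) turned under scaling to the median of all probes, GRHL1 (0.69) under the mean of its probes, and LHX4 (-0.39), not called as reported, under scaling on detected probes. Scaling to the median of all probes gave 5628 called genes, 5309 higher and 319 lower, with 488 and 32 by at least 2-fold, and 6248 changes from day 5. Of the 3442 reported calls 2213 were made again there and 0 turned. Scaling on detected probes gave 2717 lower genes. The 6 day 11 arrays alone gave 2356 called genes, 1339 higher and 1017 lower. Of the 3442 reported calls 2312 were made again with those arrays alone and 0 turned. Genes at least 2-fold higher and lower numbered 201 and 68 without background correction, and 192 and 69 with an offset of 50. The second deposited table gave 174 at least 2-fold lower. Leaving out 1 array gave 2759 to 3182 calls at day 11, 1578 to 1794 higher, 1181 to 1388 lower, 300 to 351 and 103 to 127 by at least 2-fold. It gave 2131 to 2545 at day 9, 1280 to 2435 at day 7, 875 to 1171 at day 5 and 2237 to 2705 changes. The lowest day 5 counts came without PIP replicate 1 (875) and NSB replicate 3 (978). With the replicate number as a block, 3380 genes were called at day 11, 2746 at day 9, 1617 at day 7, 1478 at day 5 and 2623 for the change. Residuals of same-numbered day 11 arrays correlated at -0.02, -0.13 and 0.12, so the numbers were not taken as pairs. The slide block was not run. The causes of these shifts were not tested. Dim probes lie near background, which limits their folds.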
